A study of Mus musculus with 6 samples.

Results

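The genes described here encode the receptors that bind glucocorticoids, the chaperones that hold those receptors in a form able to bind hormone, and the enzymes that activate or inactivate the hormone inside the cell. They were chosen by name: the receptors Nr3c1 and Nr3c2, the dehydrogenases Hsd11b1 and Hsd11b2, the immunophilins Fkbp5 and Fkbp4, the chaperone genes Hsp90aa1 and Hsp90ab1, and the co-chaperones Ptges3 and Stip1. Of these 10 genes, 9 had a named probe set among the 19919 genes tested, and Hsp90ab1 was not analysed here. RNA from the corpus of the stomach, where acid is secreted, was hybridised to single-colour Affymetrix arrays. It came from female wildtype Balb/c mice of 8 to 12 weeks. In the dexamethasone group, 3 biological replicates came from mice whose drinking water held the synthetic glucocorticoid at 50 mg per litre for 3 days, with the solution changed on day 2. The control group held 3 biological replicates from untreated mice, and no transgene or other agent is named for either group. Values are log2 expression after RMA (robust multi-array average), so a difference of 1 is a doubling, and a shift shared by most genes would not be visible.

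Without hormone, the glucocorticoid receptor (Nr3c1) waits in the cytosol in a complex with Hsp90, the small co-chaperone p23 (Ptges3) and an immunophilin. The adaptor Hop (Stip1) hands the receptor from Hsp70 to Hsp90 during assembly. FKBP51 (Fkbp5) lowers the receptor's affinity for hormone, while its relative FKBP52 (Fkbp4) replaces it on hormone binding and links the complex to dynein for transport to the nucleus. Fkbp5 is itself a classical target of the receptor, which makes it part of a negative feedback loop. The mineralocorticoid receptor (Nr3c2) binds the same natural glucocorticoids as well as aldosterone. Of the dehydrogenases, HSD11B1 regenerates active glucocorticoid from its inert keto form, and HSD11B2 does the reverse, which shields the mineralocorticoid receptor in epithelia such as kidney and colon.

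The 250 bases before an annotated gene start are printed for Fkbp5 and Nr3c2, whose expression changed, and for Fkbp4, the relative of Fkbp5 that did not pass the test. They are RefSeq sequences of GRCm38.p6, the C57BL/6J reference and not the Balb/c strain used, and are read 5′ to 3′ on the gene's strand. The Fkbp5 window is chr17:28486150-28486399 on the minus strand, directly before the gene (28398753 to 28486149). The Fkbp4 window is chr6:128438657-128438906 on the minus strand, directly before the gene (128430103 to 128438656). The Nr3c2 window, chr8:76902080-76902329 on the plus strand, lies inside the annotated gene (76898083 to 77245012), before a later start. Capitals mark CCAAT boxes (CCAAT), GC boxes (GGGCGG) and heat shock element pairs (GAANNTTC or TTCNNGAA), each searched on both strands.
Fkbp5: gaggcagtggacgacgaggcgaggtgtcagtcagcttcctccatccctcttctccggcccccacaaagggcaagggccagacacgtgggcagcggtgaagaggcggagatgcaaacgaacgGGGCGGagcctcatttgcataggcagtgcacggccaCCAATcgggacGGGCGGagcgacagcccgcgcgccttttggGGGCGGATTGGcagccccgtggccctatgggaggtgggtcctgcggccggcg
Fkbp4: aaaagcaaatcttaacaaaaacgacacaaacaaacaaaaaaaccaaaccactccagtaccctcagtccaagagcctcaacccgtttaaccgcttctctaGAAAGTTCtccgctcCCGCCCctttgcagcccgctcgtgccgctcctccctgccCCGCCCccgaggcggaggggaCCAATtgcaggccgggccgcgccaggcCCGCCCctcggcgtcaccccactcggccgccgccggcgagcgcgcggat
Nr3c2: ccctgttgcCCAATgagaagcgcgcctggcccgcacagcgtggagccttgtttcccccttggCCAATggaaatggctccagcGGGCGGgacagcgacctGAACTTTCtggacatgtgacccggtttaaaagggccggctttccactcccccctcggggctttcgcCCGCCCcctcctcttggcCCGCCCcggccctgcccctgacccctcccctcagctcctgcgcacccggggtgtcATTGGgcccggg

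Each of the 3 windows held 3 GC boxes, a motif present in 32.7% of all 32851 promoter windows of that length. Fkbp5 had 2 CCAAT boxes, Fkbp4 had 1 and Nr3c2 had 3, against a share of 33.8% of windows with at least 1. In Fkbp5 the second CCAAT box, read on the opposite strand, directly follows a GC box. Fkbp4 and Nr3c2 each had 1 heat shock element pair, found in 12.8% of windows, and both begin 151 bases before the start. The full glucocorticoid response element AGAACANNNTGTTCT was in none of the windows of the 6 members that matched the RefSeq promoter table (these 3 with Hsd11b1, Ptges3 and Stip1), and in 0.00913% of all windows. Its shorter arm AGAACA was in 0 of those 6 windows and in 16.1% of all windows. Of the same 6 windows, 4 held a GC box and 5 a CCAAT box. Ptges3 had 3 GC boxes and Stip1 had 4 CCAAT boxes, though neither gene passed the test. These matches describe the letters of the windows only.

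Dexamethasone changed 2 of the 9 measured members: Fkbp5 rose and Nr3c2 fell, while 7 did not pass (limma with Benjamini-Hochberg adjustment over all genes, threshold 0.05). Over all genes 1.84% were called, 0.798% higher and 1.04% lower. In 5 of the 9 the groups did not overlap, 2 higher and 3 lower in dexamethasone samples, against 18.3% of all genes (8.84% higher and 9.46% lower). An unadjusted p under 0.05 (limma) was found for 5 of the 9 and for 13.1% of all genes. The members were chosen with earlier results of these data known, so these shares are a description only. The median log2 change was -0.044 over the members and 0.0023 over all genes. Fkbp5 had the sixth largest rise of all genes, and Nr3c2 ranked 139 among the falls.

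**Figure D1:**
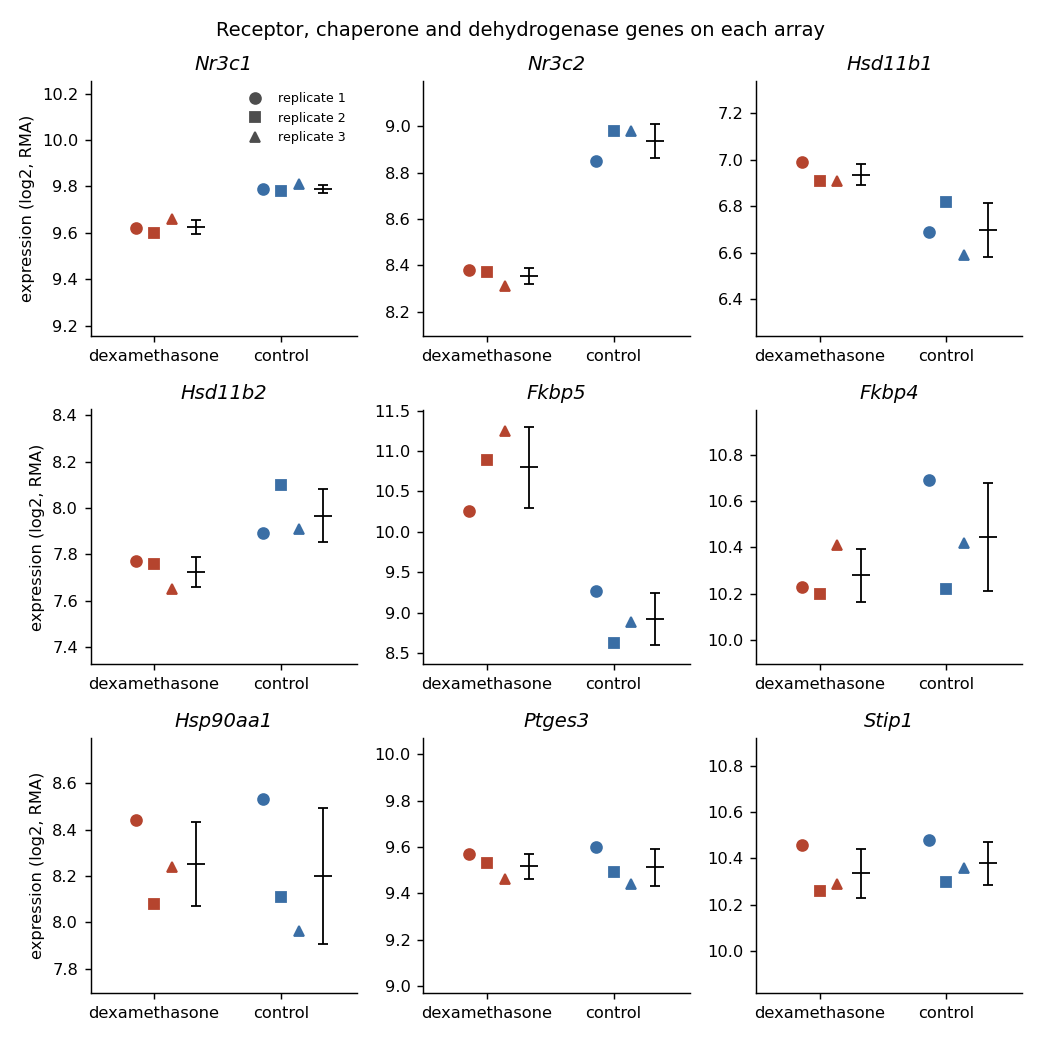
Log2 expression of the 9 measured genes on each array, dexamethasone in red and control in blue, with marker shape for the replicate number and a bar for the group mean ± SD (n = 3). Fkbp5, Nr3c2, Nr3c1, Hsd11b1 and Hsd11b2 show no overlap between the groups. The vertical scale differs between panels.

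Among the receptors, the mineralocorticoid receptor gene Nr3c2 had log2 values of 8.38, 8.37 and 8.31 in dexamethasone samples, against 8.85, 8.98 and 8.98 in control samples. Every dexamethasone sample lay at least 0.475 below the lowest control. The fall was a log2 change of -0.58 (SE 0.063, limma adjusted p = 0.00550). In RNA of whole tissue, fewer cells of a type and less RNA per cell cannot be told apart. The call held without each of the 6 arrays in turn, with adjusted p between 0.00741 and 0.0463.

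The glucocorticoid receptor gene Nr3c1 was measured at 9.62, 9.60 and 9.66 in dexamethasone samples and at 9.79, 9.78 and 9.81 in control samples. Its groups lay apart by 0.12, with a spread within each group of 0.030 (SD, dexamethasone) and 0.016 (SD, control). The difference did not pass the adjustment (log2 change -0.16, SE 0.055, 95% interval -0.29 to -0.036, limma adjusted p = 0.247). The interval excludes a fall of the size fitted for Nr3c2.

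The fitted changes of the 2 receptor genes were of unequal size. The difference between the 2 genes within an array, centred on its mean over the 6 arrays, was -0.18, -0.17 and -0.28 in dexamethasone samples and 0.13, 0.27 and 0.23 in control samples. The changes therefore differed by -0.42 (pooled SD 0.067, n = 3 per group), and the groups did not overlap. A two-sided exact permutation test gave p = 0.1, the smallest this design allows, and 0.1 after adjustment over the 3 pairs compared. The 95% interval of the difference, from the pooled variance, was -0.57 to -0.27.

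Of the immunophilins, Fkbp5 stood at 10.26, 10.89 and 11.25 in dexamethasone samples, against 9.26, 8.62 and 8.88 in control samples. The lowest dexamethasone sample was 0.998 above the highest control. The rise was 3.68-fold (log2 change 1.88, SE 0.26, 95% interval 1.29 to 2.47, limma adjusted p = 0.0151). Fkbp5 also varied most among the members within a group, with an SD of 0.50 in dexamethasone samples and 0.32 in control samples. Its call was lost without dexamethasone replicate 2 (adjusted p = 0.0883), control replicate 2 (0.0503) or control replicate 3 (0.0957), while the log2 change stayed between 1.66 and 2.15 in the 6 fits that left out an array.

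Fkbp4 showed 10.23, 10.20 and 10.41 in dexamethasone samples and 10.69, 10.22 and 10.42 in control samples. The groups overlapped, and control replicate 1 was the highest of the 6. The log2 change was -0.16 (SE 0.12, 95% interval -0.45 to 0.12, limma adjusted p = 0.644), an interval that excludes a rise such as that of Fkbp5. Within an array, the difference between Fkbp5 and Fkbp4, centred on its mean, was 0.53, 1.20 and 1.34 in dexamethasone samples against -0.93, -1.10 and -1.04 in control samples. The changes of the 2 immunophilin genes differed by 2.05 on the log2 scale (95% interval 1.34 to 2.75, pooled SD 0.31). The two-sided exact permutation p was 0.1, the smallest this design allows, and 0.1 adjusted over the 3 pairs.

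**Figure D2:**
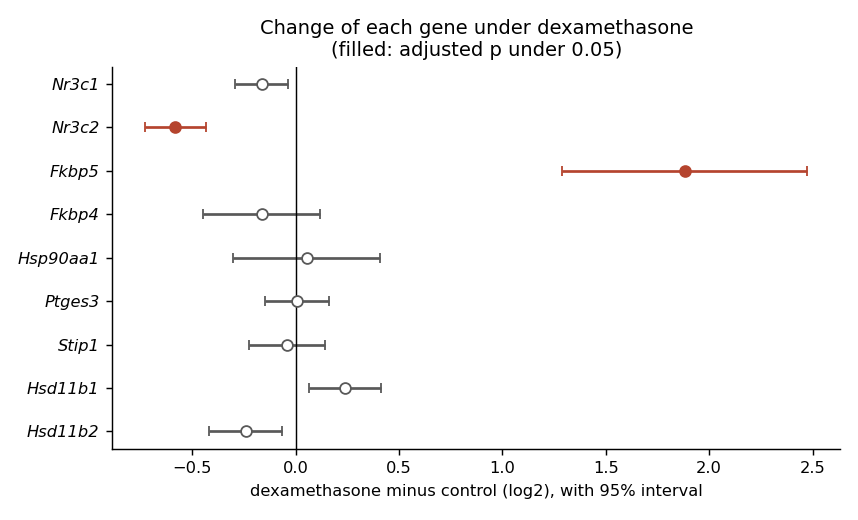
Log2 change, dexamethasone minus control, of each of the 9 genes with its 95% interval from limma (n = 3 per group), filled where the adjusted p was under 0.05. Fkbp5 at 1.88 and Nr3c2 at -0.58 are filled, and the intervals of Fkbp4, Hsp90aa1, Ptges3 and Stip1 include 0.

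The core chaperone genes analysed, which leave out Hsp90ab1, gave no call. Hsp90aa1, the stress-inducible cytosolic Hsp90 gene, read 8.44, 8.08 and 8.24 in dexamethasone samples and 8.53, 8.11 and 7.96 in control samples (log2 change 0.053, 95% interval -0.30 to 0.41, limma adjusted p = 0.933). Ptges3 (p23), which stabilises the receptor bound to Hsp90, read 9.57, 9.53 and 9.46 in dexamethasone samples and 9.60, 9.49 and 9.44 in control samples. Its log2 change was 0.0054 (95% interval -0.15 to 0.16, limma adjusted p = 0.985). Stip1 (Hop) read 10.46, 10.26 and 10.29 in dexamethasone samples, against 10.48, 10.30 and 10.36 in control samples (log2 change -0.044, 95% interval -0.23 to 0.14, limma adjusted p = 0.876). The groups overlapped for all 3 genes, and a change as large as that of Nr3c2, in either direction, lies outside the 3 intervals.

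The larger differences among these genes lay within the groups. Hsp90aa1, Ptges3 and Stip1 were each highest in replicate 1 of both groups. Relative to its group mean, Hsp90aa1 was higher by 0.19 in dexamethasone replicate 1 and by 0.33 in control replicate 1. Stip1 was higher by 0.12 and 0.10 on the same arrays, and Ptges3 by 0.05 and 0.09. Fkbp4 was higher by 0.25 in control replicate 1 but lower by 0.05 in dexamethasone replicate 1, so it followed the pattern in the control group alone. The mean of 12 other measured heat shock genes was 0.04 above its group mean in dexamethasone replicate 1 and 0.25 above it in control replicate 1. The labels name no batch that the replicate number would stand for.

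**Figure D3:**
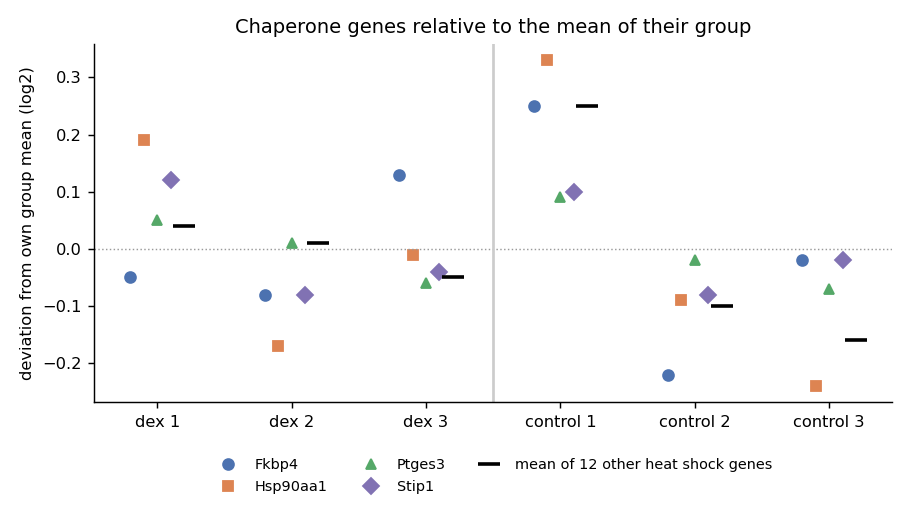
Log2 expression of Fkbp4, Hsp90aa1, Ptges3 and Stip1, and the mean of 12 other heat shock genes (black bar), on each array relative to the mean of the array's own group. Replicate 1 of the control group lies above 0 for all 5 quantities, and in dexamethasone replicate 1 Fkbp4 lies below 0.

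The dehydrogenases differed in opposite directions by similar amounts, and neither passed. Hsd11b1, the activating enzyme, had values of 6.99, 6.91 and 6.91 in dexamethasone samples and 6.69, 6.82 and 6.59 in control samples. The groups were apart by 0.084, and the log2 change was 0.24 (SE 0.075, 95% interval 0.064 to 0.41, limma adjusted p = 0.215). Its signal was dim, at the 20.0th percentile of all genes, where RMA compresses differences. Hsd11b2, the inactivating enzyme, had values of 7.77, 7.76 and 7.65 in dexamethasone samples and 7.89, 8.10 and 7.91 in control samples. Here the dexamethasone samples lay 0.12 or more below the controls (log2 change -0.24, SE 0.076, 95% interval -0.42 to -0.065, limma adjusted p = 0.216).

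The dehydrogenases were also set against each other within each array. The difference between Hsd11b1 and Hsd11b2, centred on its mean, was 0.25, 0.18 and 0.29 in dexamethasone samples, against -0.17, -0.25 and -0.30 in control samples. The changes differed by 0.48 (95% interval 0.34 to 0.62, pooled SD 0.061). The two-sided exact permutation p was 0.1, the smallest this design allows, and 0.1 adjusted over the 3 pairs. Control replicate 2 was the highest control for both genes, at 6.82 and 8.10. The glucose-6-phosphate dehydrogenase of the endoplasmic reticulum, H6pd, which supplies HSD11B1 with NADPH, had a log2 change of 0.13 (limma adjusted p = 0.642) and was added after its values were seen.

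Around the receptor, 6 further lists held 129 distinct measured genes outside the members. Of these 3 were called, or 2.33%, near the 1.84% of all genes, and 14.7% had an unadjusted p under 0.05, against 13.1% of all genes. Of 41 measured genes for chaperones, co-chaperones, immunophilins and heat shock factors with their regulators, outside the members, 0 passed and 4 had an unadjusted p under 0.05 (limma). Dnaja1, an Hsp40 partner of Hsp70, came closest, with 8.14, 8.00 and 8.14 in dexamethasone samples against 8.60, 8.43 and 8.40 in control samples (log2 change -0.38, adjusted p = 0.0615). Hsf2, a heat shock transcription factor, followed with a log2 change of -0.25 (adjusted p = 0.146). The median log2 change of the list was -0.039. Of 14 heat shock genes, which include Hsp90aa1 and Stip1, 0 passed and 3 had an unadjusted p under 0.05 (limma), with a median of -0.020. After Dnaja1, the smallest p in that list belonged to Hspb8, a small heat shock protein abundant in muscle, at 9.29, 9.40 and 9.04 in dexamethasone samples and 8.83, 8.58 and 8.29 in control samples (log2 change 0.68, adjusted p = 0.0773). Without control replicate 1, Hspb8 and Hsph1 were called higher (adjusted p = 0.0319 and 0.0261). Without dexamethasone replicate 3, Hspb8 and Cryab were (0.0481 and 0.0346). Hsph1 and Cryab are named after their values were seen.

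Of 20 genes of nuclear transport, among them importins, exportin, nucleoporins, dynein parts and calreticulin, 0 passed and 1 had an unadjusted p under 0.05 (limma). Dync1i2, a dynein intermediate chain, had a log2 change of -0.16 and the light chain gene Dynll1 one of 0.29 (adjusted p = 0.331 and 0.421), and the list's median was -0.017. Of 27 coregulators, 1 rose, 1 fell and 25 did not pass, with a median of -0.052. The cryptochrome gene Cry2, whose protein represses the circadian clock and can also restrain the glucocorticoid receptor, fell 1.35-fold, with 8.30, 8.30 and 8.27 in dexamethasone samples and 8.66, 8.80 and 8.71 in control samples (log2 change -0.44, SE 0.061, limma adjusted p = 0.0165). Ncoa4, known both as a nuclear receptor coactivator and as the cargo receptor for ferritin breakdown, rose 1.30-fold, with 8.58, 8.57 and 8.61 in dexamethasone samples and 8.18, 8.14 and 8.31 in control samples (log2 change 0.38, SE 0.066, limma adjusted p = 0.0386). Neither passed without dexamethasone replicate 1, dexamethasone replicate 2, control replicate 2 or control replicate 3, and Cry2 alone passed without dexamethasone replicate 3 or control replicate 1.

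Of 31 genes for the synthesis, breakdown and transport of steroids, 0 rose, 1 fell and 30 did not pass. The gene that fell was Hsd17b2, whose enzyme oxidises oestradiol and testosterone to weaker forms. It had 8.67, 8.68 and 8.57 in dexamethasone samples, against 9.66, 9.55 and 9.57 in control samples. It was 1.94-fold lower (log2 change -0.95, SE 0.064, limma adjusted p = 0.000880), and the call held without each array in turn. The list's median was 0.0051. Of 6 other receptors of the steroid and oestrogen-related family, 0 passed and 1 had an unadjusted p under 0.05 (limma). Esrrb had a log2 change of 0.39 and Esr1 one of -0.18 (adjusted p = 0.0576 and 0.408), with a median of 0.066, and Esrrb was called without dexamethasone replicate 3 (adjusted p = 0.0490).

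**Figure D4:**
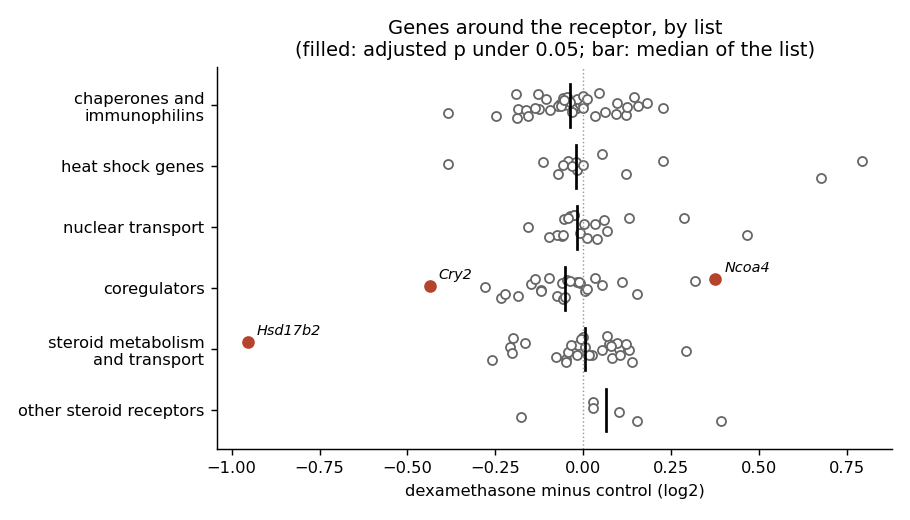
Log2 change, dexamethasone minus control, of every measured gene in 6 lists around the receptor, 1 point per gene, with a bar at each list's median. The 3 filled points passed the adjusted p threshold: Hsd17b2 at -0.95, Cry2 at -0.44 and Ncoa4 at 0.38.

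The 5 genes whose centred profile over the 6 arrays lay closest to that of Fkbp5, by root mean square distance among 19918 genes, were Arg2 (0.297), Lox (0.304), Dpep1 (0.304), F13a1 (0.317) and Pdk4 (0.325). They encode mitochondrial arginase, lysyl oxidase, a dipeptidase, a subunit of coagulation factor XIII and a pyruvate dehydrogenase kinase. The profile of Fkbp5 itself had a root mean square size of 1.002. Fkbp5 spanned more than the 5 others within the dexamethasone samples, with 10.26, 10.89 and 11.25, whereas Arg2 read 8.95, 9.29 and 9.24 there. For Nr3c2, whose profile had a size of 0.295, the closest were Mettl7b (0.0405), Lypd6b (0.0415), Add3 (0.0483), Dsc2 (0.0490) and Prom1 (0.0511). Among these, Add3 encodes an adducin of the membrane skeleton, Dsc2 a desmosomal cadherin and Prom1 the membrane protein prominin. Add3 read 10.59, 10.66 and 10.64 in dexamethasone samples and 11.16, 11.18 and 11.24 in control samples. The choice by distance brings about the separation of the groups in these genes, and the distances are a description of 6 arrays.

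**Figure D5:**
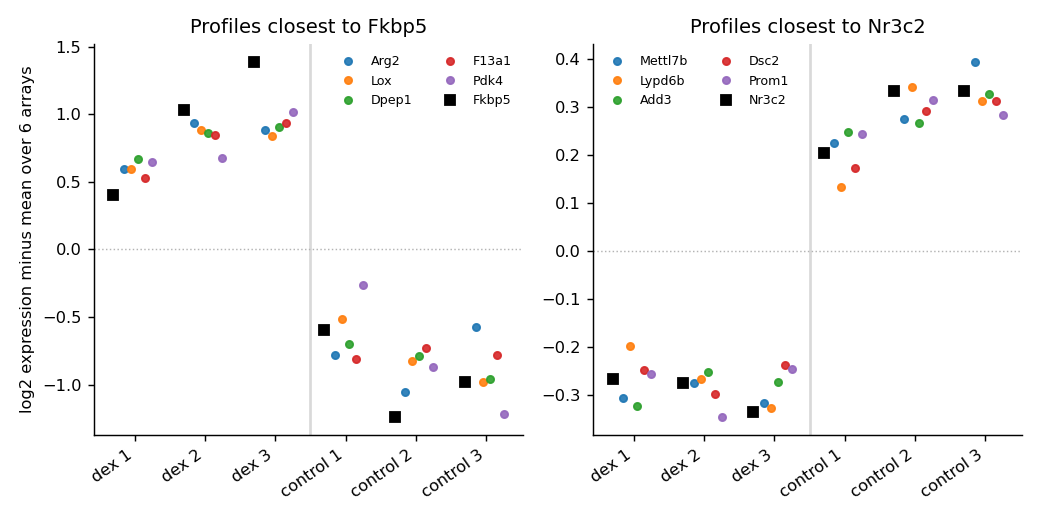
Log2 expression minus its mean over the 6 arrays for Fkbp5 (left) and Nr3c2 (right), black squares, and the 5 genes with the closest profiles, coloured points. The distance to Fkbp5 ran from 0.297 to 0.325 and that to Nr3c2 from 0.0405 to 0.0511.

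The corpus identity of the samples was plain from its defining genes: the proton pump genes Atp4a and Atp4b lay between 13.72 and 13.89 on all arrays, and the 8 measured parietal cell markers averaged 12.34 to 12.46 in dexamethasone samples and 12.28 to 12.34 in control samples. Some arrays stood apart in neighbouring tissue. The mean of 20 squamous markers of the forestomach was 10.04, 10.05 and 8.41 in the dexamethasone samples and 8.30, 9.85 and 8.45 in the control samples, in replicate order. With that mean as a covariate both calls held (log2 change 2.11 and adjusted p = 0.00167 for Fkbp5, -0.61 and 0.00512 for Nr3c2). The mean of 8 smooth muscle markers did not overlap between groups, at 11.38 to 11.79 in dexamethasone samples and 11.00 to 11.25 in control samples. Of the 8, 2 rose, against 0.798% of all genes, and 7 had an unadjusted p under 0.05 (limma), against 13.1%. Their log2 changes ran from 0.28 to 0.81, with a median of 0.56. The smooth muscle mean as a covariate was an alternative added after seeing the data. With it the log2 changes were 2.75 for Fkbp5 and -0.65 for Nr3c2, and neither passed (limma adjusted p = 0.0593 and 0.138). Because that mean separates the groups, this fit cannot tell muscle content from treatment.

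The counts in the other marker lists stand beside 1.84% of all genes called and 13.1% with an unadjusted p under 0.05 (limma). In the fibroblast list 2 of 8 genes rose, and log2 changes ran from -0.53 to 0.70, with a median of 0.17. That list averaged 10.38 to 10.49 in dexamethasone samples and 10.10 to 10.41 in control samples. Of 6 surface mucous genes 2 fell, with averages of 11.27 to 11.41 in dexamethasone samples and 11.60 to 11.82 in control samples. Of 8 myeloid genes 1 rose and 1 fell, of 10 lymphoid genes 1 fell, and 1 of 20 squamous and 1 of 7 endocrine genes rose. An unadjusted p under 0.05 (limma) was found for 4 fibroblast, 3 surface mucous, 5 myeloid, 4 lymphoid, 3 squamous and 2 endocrine genes. The lymphoid list averaged 6.84 to 6.89 in dexamethasone samples and 6.96 to 7.15 in control samples. Its genes did not move together: their log2 changes ran from -1.56 to 0.19, with a median of 0.018. The parietal, chief, neck mucous, endothelial, enteric neuron and glia, and pancreas and duodenum lists, of 8, 5, 3, 7, 7 and 9 genes, gave 0 calls, with 1, 1, 2, 4, 0 and 2 genes at an unadjusted p under 0.05 (limma). Of these, the neck mucous list averaged 10.18 to 10.54 in dexamethasone samples and 10.70 to 10.80 in control samples. The endothelial list averaged 9.12 to 9.24 in dexamethasone samples and 8.93 to 9.05 in control samples. The log2 changes of single genes ran from -0.81 to 0.19 in the neck mucous list and from -0.058 to 0.44 in the endothelial list. The part of these cell types in the changes of Fkbp5 and Nr3c2 was not tested. The squamous covariate was an alternative fit on 6 arrays and not a test of that part. The smooth muscle covariate cannot be told apart from treatment.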

How the data were processed

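The authors' deposited table holds 1 log2 value per probe set and array for 20985 probe sets, and per the submitters' processing notes R 2.9, limma and RMA were used. Which chip definition or filter was applied is not given in the sources used here. Probe sets were named through the platform annotation: 19921 had 1 symbol, 0 had several and 1064 were not listed, Hsp90ab1 among them. The brightest probe set per symbol left 19919 genes.

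All genes entered 1 linear model (limma 3.58.1, R 4.3.3, default prior, no filter, two-sided), with Benjamini-Hochberg adjustment and a threshold of 0.05. The fit was also run on simulated data with independent noise for each gene, which lack the variation that genes share on an array. Pairs of genes were compared by the exact permutation test over 20 splits. The pair of Hsp90aa1 and Hsp90ab1 was not run. Promoter letters were searched with Python 3.11.15. With 3 arrays per group, their number limits the precision.

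The members and lists were chosen with earlier results of these data known. Genes named are the members, every called gene of the 6 pathway lists (or the 2 of smallest p where none was called) and the 5 closest profiles of Fkbp5 and Nr3c2. H6pd, Hsph1, Cryab and Abcb1b were added after their values were seen, and Atp4a and Atp4b come from the parietal marker list. Alternatives were a replicate block, array scalings, filters, priors, array weights, covariates and each array left out.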

Additional observations from a re-analysis of the deposited data

How the results depend on the processing

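Fkbp5, Nr3c2, Nr3c1 and Hsd11b2 kept their direction under all 15 alternatives. Hsd11b1 kept it under the 14 that could be run, since the dimmest 40% of genes include it. For most alternatives this outcome was fixed in advance. The replicate block, the filters and the priors leave a gene's log2 change as it was. Where the groups do not overlap, as for these genes, leaving out or weighting arrays cannot turn the sign. Without each array in turn, the called members numbered 1 to 2 (2 with all arrays) and all called genes 88 to 543 (367 with all arrays), and the log2 change ran from 1.66 to 2.15 for Fkbp5. In the same fits the lists gave 0 to 1 (chaperones), 0 to 2 (heat shock), 0 to 1 (coregulators) and 0 to 1 (steroid receptors) called genes. The log2 change without an array ran from -0.065 to 0.22 for Hsp90aa1, -0.029 to 0.050 for Ptges3 and -0.10 to 0.0064 for Stip1, turning sign in each.

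Whether the replicate number pairs the samples was not settled. Correlations of deviations across genes were -0.28, 0.35 and 0.23 between samples of the same number 1, 2 and 3. Between dexamethasone replicates 1, 2 and 3 and controls of other numbers they ran from -0.13 to 0.38, -0.21 to -0.20 and -0.49 to 0.32. Only number 2 had its same-number value above the others, and 3 arrays per group cannot decide the question. With the replicate block, Fkbp5 and Nr3c2 stayed called (adjusted p = 0.0435 and 0.0313), all called genes were 220, coregulators 0 and heat shock genes 2 (Hspb8 and Cryab). Array weights called 1776 genes and 4 members, adding Nr3c1 (log2 change -0.19, adjusted p = 0.0478) and Hsd11b1 (0.28, 0.0389), with 2 chaperones, 3 heat shock, 1 transport, 5 coregulator, 2 steroid metabolism and 1 steroid receptor gene. Centring arrays on their median left 1 coregulator and turned Ptges3 to -0.012. The squamous covariate gave 1 heat shock gene (Cryab) and Ptges3 at -0.0045. The smooth muscle covariate, added after seeing the data, left 38 called genes, 0 members and 0 coregulators, with Fkbp5 at 2.75, Nr3c2 at -0.65, Fkbp4 at 0.16, Hsp90aa1 at -0.018 and Ptges3 at -0.0997. The 3 differences between paired genes moved by less than their SD under the 8 alternatives run. The causes were not tested.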

Other observations

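Abcb1b, a drug and steroid exporter of the steroid list chosen here after its values were seen, was 7.20, 7.27 and 7.30 in dexamethasone samples and 6.87, 7.11 and 6.92 in control samples (log2 change 0.29, limma adjusted p = 0.136). The groups did not overlap, which was true of 18.3% of all genes.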
